A study of Mus musculus with 26 samples.

Results

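The Hox cluster genes of the mouse were followed in whole embryos at E9.5. Members were the protein-coding genes whose symbol is Hoxa, Hoxb, Hoxc or Hoxd with a paralog number, as listed in both expression tables. This gave 39 genes in 40 of 54532 gene records, since *Hoxd4* has 2 records. There were 11 genes in the Hoxa cluster on chromosome 6, 10 in the Hoxb cluster on chromosome 11, 9 in the Hoxc cluster on chromosome 15 and 9 in the Hoxd cluster on chromosome 2. The rule used names only, and no expression value chose a member.

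Hox genes encode homeodomain transcription factors that give cells of the trunk, hindbrain and limbs their position along the body. Their order on the chromosome matches the order in which they are switched on and their front limit in the embryo: genes at the 3′ end (low paralog numbers) act early and far forward, genes at the 5′ end (high paralog numbers) act late and near the tail. The forebrain and midbrain express none of them. In the text, paralog numbers 1 to 3 are called anterior, 4 to 8 middle and 9 to 13 posterior, which gave 8, 15 and 16 genes.

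TRAF7 is a RING-domain protein with WD40 repeats, and the study asked what its loss does to the embryo. The conditional allele carries loxP sites around exons 2 to 14 of *Traf7*, on a C57BL/6 background. GLOko embryos (6) had lost the gene everywhere through Cre under the adenovirus EIIa promoter, which is active throughout the early embryo, and were compared with WT embryos (6). ECko embryos (7) were *Traf7* fl/fl with Tie2-Cre, which is active in early endothelium and in blood-forming cells, and were compared with EChet embryos (7), which are heterozygous and carry Tie2-Cre as well. RNA came from whole embryos freed of the yolk sac, so the deleted cells of an ECko embryo were mixed with all others. In such bulk samples, fewer cells of a region and less RNA per cell cannot be told apart.

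The 26 libraries held 16662293 to 25364652 reads in genes, as recovered from the FPKM values (fragments per kilobase of gene and scaled to library size). *Traf7* itself stood at 1.75 to 3.12 FPKM in GLOko against 11.1 to 20.6 in WT, and at 13.6 to 20.4 in ECko against 18.8 to 22.7 in EChet, so each global knockout library matched its label. Whole embryos should hold head, hindbrain, limb and tail, and none of the 12 forebrain and midbrain, 5 hindbrain or 8 limb bud markers was at 0 in any library. Among the 15 tailbud and presomitic mesoderm markers, 3 were at 0 in GLOko 1, 2 in ECko 6, and 1 each in GLOko 2, GLOko 5 and ECko 1. Yolk sac endoderm transcripts were high in GLOko 4 and GLOko 5, where *Afp* stood at 45.3 and 168 FPKM against 0.652 to 16.5 in WT.

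Genes of all 4 clusters were transcribed, with no even slope along them. Of the 40 records, 4 had a mean above 10 FPKM in WT, 30 lay from 1 to 10 and 6 were below 1. *Hoxb9*, which acts in the thoracic trunk, was the highest member in WT, at 34.5 to 54.5 FPKM with a median of 42.3. Its mean was 42.8 ± 7.94 FPKM (SD, n = 6) in WT, 40.6 ± 18.6 (n = 6) in GLOko, 42.8 ± 4.05 (n = 7) in EChet and 43.8 ± 8.84 (n = 7) in ECko. These means lay close together, while the spread was wider in both knockout groups.

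In the Hoxc cluster the highest member was *Hoxc10*, a gene of the lumbar region and hindlimb, with 10.2 to 29.3 FPKM and a median of 15.6 in WT. In the Hoxd cluster it was *Hoxd9*, at 8.36 to 13.4 FPKM with a median of 9.38. The WT ranges of *Hoxc10* and *Hoxd9* overlapped, and *Hoxb9* lay above both in every WT embryo.

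Transcription reached the 5′ end to a different extent in each cluster. The highest paralog number with at least 0.1 FPKM in every WT embryo was 13 in Hoxa and Hoxd, 11 in Hoxc and 9 in Hoxb. In the Hoxb cluster the next member after *Hoxb9* is *Hoxb13*, with none between them. *Hoxd13*, a gene of the tail end, genital bud and distal limb, stood at 3.32 to 8.23 FPKM in WT, and *Hoxa13* at 0.662 to 2.28. *Hoxc11* stood at 1.43 to 5.67 FPKM, whereas *Hoxc12* and *Hoxc13* were each at 0 in 1 WT embryo. *Hoxb13* had 0 reads in all 6 WT and all 7 EChet embryos, which allows up to 3 reads in each, and at most 8 reads in any of the others. At the 3′ side the Hoxd cluster had a stretch of low listed values: *Hoxd3* stood at 0.482 to 0.917 FPKM and *Hoxd4* at 0.0426 to 0.265 in WT. The *Hoxd4* records lie within the span of *Hoxd3*, and how reads in shared exons were counted is not stated. Weak transcription and loss of shared reads cannot be told apart here.

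**Figure D1:**
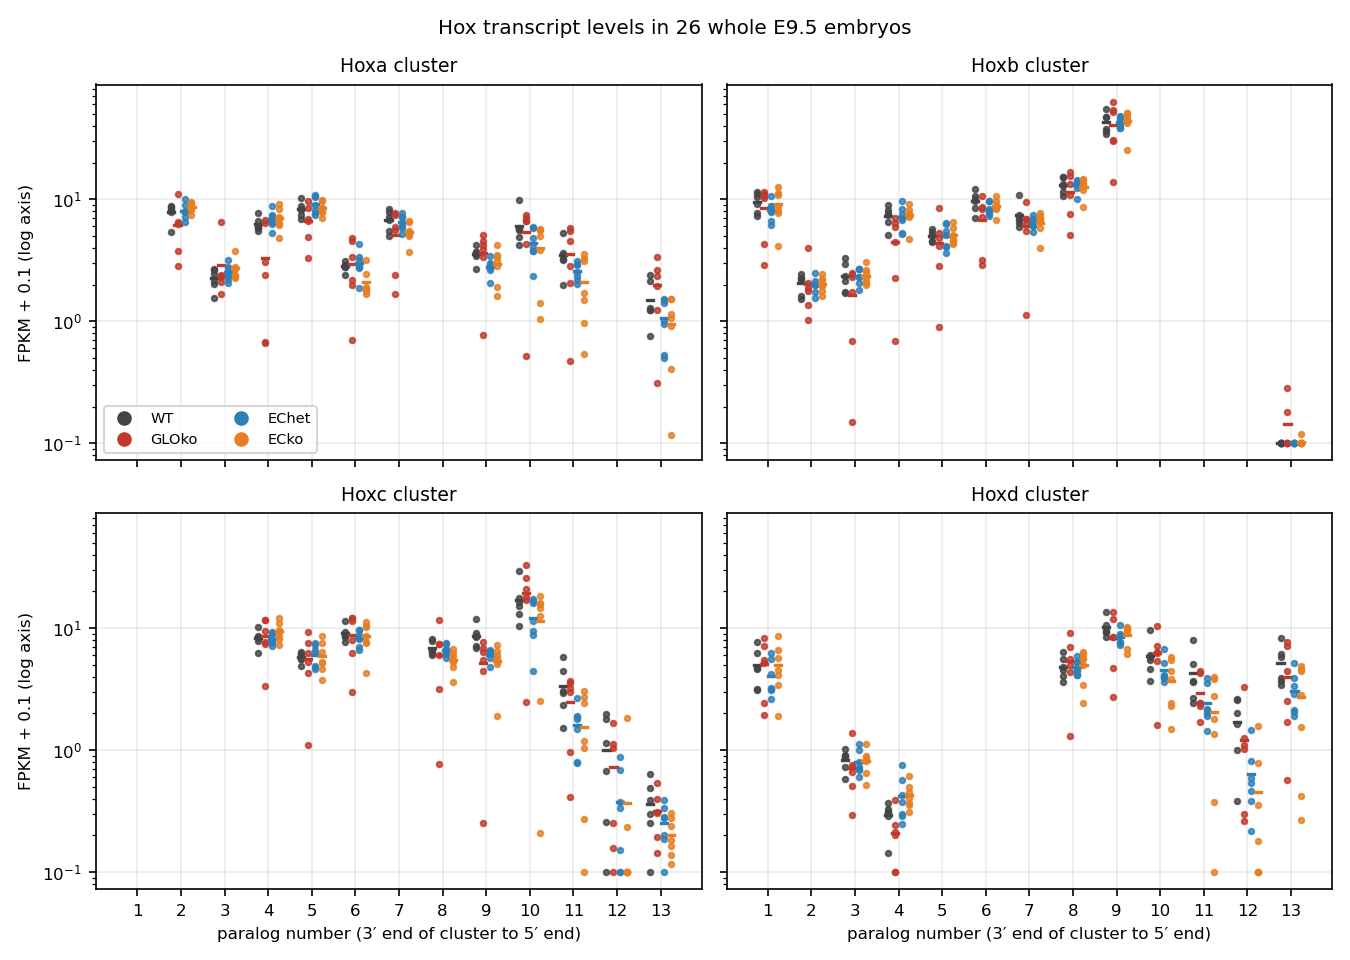
FPKM plus 0.1 (log axis) of Hox genes against their paralog number, 1 panel a cluster, with a point for each embryo and a short bar for each group mean (WT and GLOko n = 6, EChet and ECko n = 7). *Hoxb9* is the highest gene, at 34.5 to 54.5 FPKM in WT, the scatter of the GLOko points is wide along all clusters, and that of the ECko points widens from paralog 10 on. The better covered of the *Hoxd4* records is drawn.

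Some of these records share exons with other genes, so their listed levels may be too high or too low. Exons of other annotated genes covered 62.8% of the *Hoxd3* record, 52.9% of *Hoxb3* (the antisense transcript *Hoxb3os*), and 35.0% of *Hoxa11* (*Hoxa11os*), and whether the counting used strand is not stated. Reads of these members and their partners could therefore not be separated. The second *Hoxd4* record, 52.3% of which was covered in this way, held 0 to 6 reads and was not tested. The overlap of the *Hoxd4* record that was tested was not measured. Left out of the test as well was *Hoxb13*, and 38 genes were tested in each table.

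Whether loss of TRAF7 moved Hox transcript levels was asked first for the global knockout. No Hox gene passed the test: 0 of 38 were called at an adjusted p of 0.05 or less (limma on log2 values, Benjamini-Hochberg over all 17573 genes), against a background of 10.4% of all genes. In this test 3 of 38 Hox genes had an unadjusted p below 0.05, against 4969 of all 17573 genes. A limma-voom fit on the recovered reads also called 0 Hox genes. The fold changes leaned to one side: 34 of 38 were below 0, with a median of -0.34 on the log2 scale against 0.01 for all genes tested. By position the medians were -0.21 over 8 anterior, -0.45 over 15 middle and -0.44 over 15 posterior genes.

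That lean was weaker without 2 embryos. GLOko 1 and GLOko 2 were singled out by their Hox levels after the values were seen, so leaving them out is no test of the lean. Without them, 8 of 15 middle and 9 of 15 posterior genes lay above 0, with medians of 0.00 and 0.07. The anterior median was then -0.10. The limma test was also not precise for these genes. The median standard error was 0.37, and only 14 of 38 95% intervals lay wholly within a 2-fold change in either direction.

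*Hoxa4*, a gene of the caudal hindbrain and neck, was 0.561, 6.33, 2.97, 6.66, 2.29 and 0.578 FPKM in GLOko 1 to GLOko 6, against 5.40 to 7.64 in WT. Hence 4 GLOko embryos lay below every WT embryo and the other 2 within the WT range. The log2 fold change was -1.42 ± 0.54 (adjusted p = 0.102, limma). It passed the threshold only when GLOko 2 or GLOko 4, the 2 embryos at the WT level, was left out (adjusted p = 0.0470 and 0.0412, limma).

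Its paralog *Hoxb4* was 0.594, 6.89, 5.81, 6.25, 4.41 and 2.17 FPKM in the same order, against 4.98 to 8.96 in WT (log2 fold change -1.02 ± 0.47, adjusted p = 0.176, limma). Here the lowest embryos were again GLOko 1 and GLOko 6. *Hoxb6*, a thoracic gene, was 2.78 and 3.06 FPKM in GLOko 1 and GLOko 2 and 7.05 to 10.6 in the other 4, against 6.97 to 12.04 in WT (-0.64 ± 0.30, adjusted p = 0.182). *Hoxc9*, a thoracic gene that also marks the trunk level of motor neurons, was 4.30, 0.152, 5.41, 7.58, 6.80 and 6.21 FPKM, against 6.74 to 11.7 in WT (-1.24 ± 0.68, adjusted p = 0.248). The 0.152 FPKM of GLOko 2 was 7 reads. All 6 GLOko embryos lay below the WT mean of *Hoxc9*, and without GLOko 1 and GLOko 2 its log2 fold change was -0.36.

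The comparison of ECko with EChet embryos asked the same of loss in endothelium and blood. Again 0 of 38 Hox genes were called, against a background of 0.0971% of 17514 genes, so that a count of 0 does not set the members apart. Adjusted p ran from 0.213 to 0.999, and limma-voom also called 0. An unadjusted p below 0.05 was found for 3 of 38 Hox genes, against 2531 of all 17514 genes. The median log2 fold change was -0.01 over the 38 genes and 0.00 over all genes. This comparison was tighter: 29 of 38 intervals lay within a 2-fold change, among them all 8 anterior and all 15 middle genes, and only 6 of 15 posterior ones. Posterior genes had a median of -0.41, with 12 of 15 below 0. Without ECko 1 and ECko 6 the median was 0.15 and 10 of 15 lay above 0. These embryos were singled out by their Hox levels after the values were seen, so leaving them out is no test of the low median.

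Among the members of smallest p, *Hoxa6* stood at 1.56 to 3.11 FPKM in ECko with a median of 1.73, and at 1.79 to 4.18 in EChet with a median of 2.80. The ranges overlapped, and the log2 fold change was -0.52 ± 0.17 (adjusted p = 0.213, limma). Its neighbour *Hoxa7* stood at 3.63 to 6.54 FPKM against 5.11 to 7.63 (-0.26 ± 0.12, adjusted p = 0.329). *Hoxc8*, which acts at brachial and thoracic levels, stood at 3.51 to 6.62 FPKM against 5.61 to 7.48 (-0.30 ± 0.12, adjusted p = 0.261). *Hoxc4* stood at 7.19 to 12.1 FPKM against 7.08 to 9.14 (0.20 ± 0.11, adjusted p = 0.408). All these differences were well under 2-fold, and none passed the test. *Hoxd12* was listed at 0 in 3 ECko embryos and reached 1.48 FPKM in ECko 2, against 0.116 to 1.36 in EChet (-1.07 ± 0.62, adjusted p = 0.452).

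**Figure D2:**
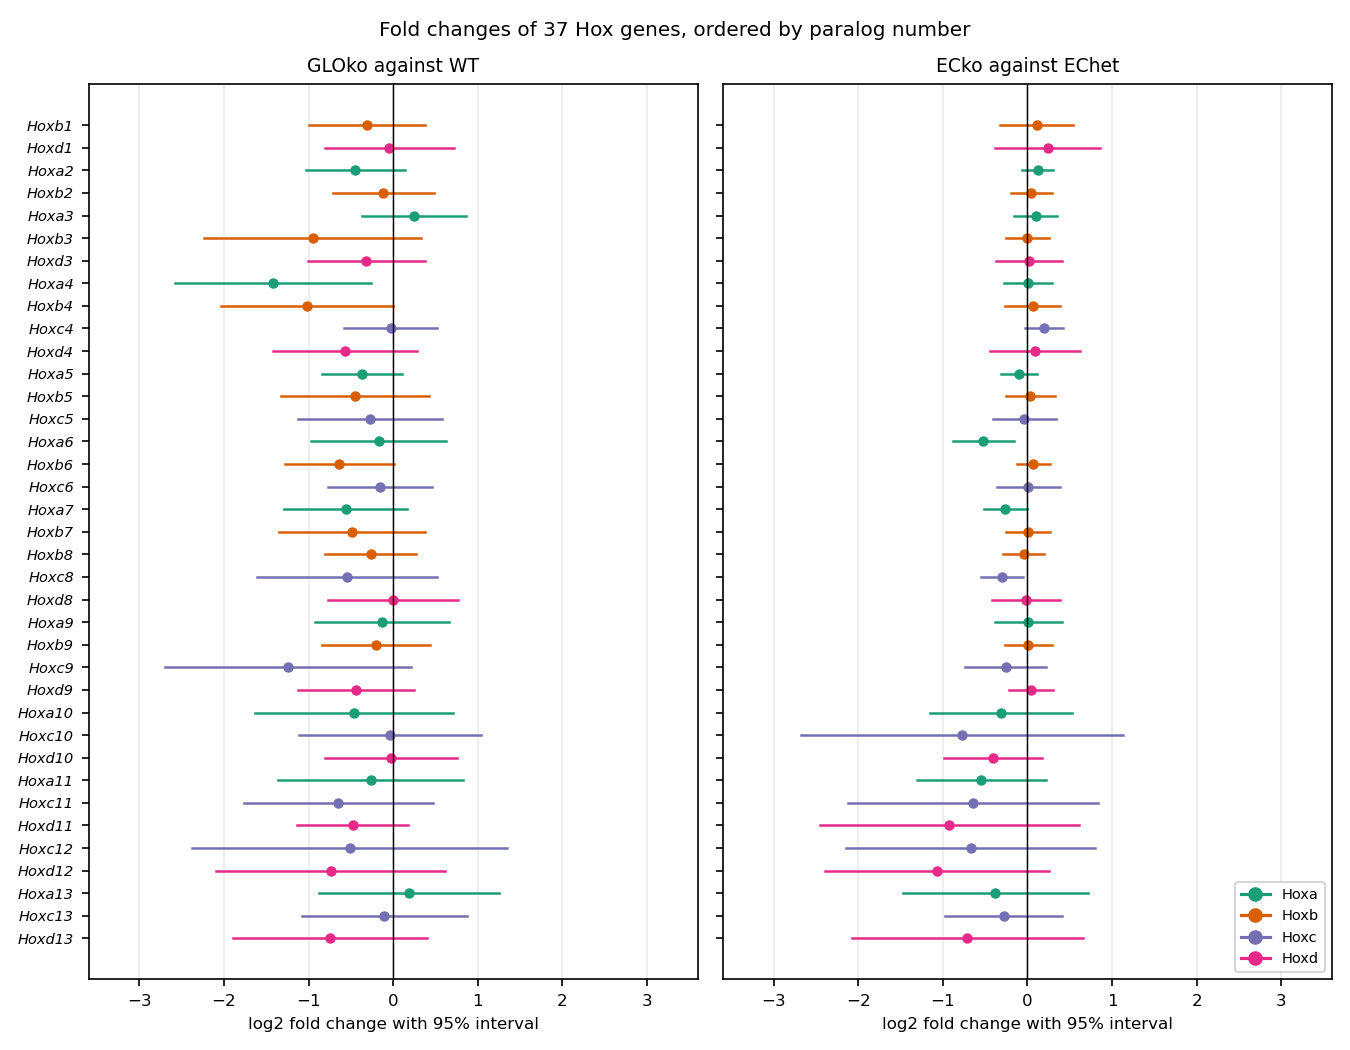
Log2 fold changes (points) with 95% intervals (lines) of 37 Hox genes from limma, ordered from low paralog numbers at the top to 13 at the bottom and coloured by cluster, for GLOko against WT (6 and 6 embryos) and ECko against EChet (7 and 7). Most intervals hold 0, and the widest of the ECko panel is that of *Hoxc10*.

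The difference of the 2 effects was tested directly, each taken within its own table. No Hox gene was called, against a background of 1.96% of 17560 genes. An unadjusted p below 0.05 was found for 3 Hox genes, against 3690 of all 17560 genes. The smallest were *Hoxa4* (-1.42 ± 0.55, adjusted p = 0.140, limma), *Hoxb6* (-0.70 ± 0.31, adjusted p = 0.198) and *Hoxb4* (-1.07 ± 0.49, adjusted p = 0.214). *Hoxa2*, the anterior hindbrain gene, followed at -0.56 ± 0.28 (adjusted p = 0.256), with 2.72 to 11.0 FPKM in GLOko, 5.32 to 8.67 in WT, 7.34 to 9.40 in ECko and 6.48 to 9.94 in EChet. *Hoxb3* followed at -0.95 ± 0.60 (adjusted p = 0.384). *Hoxa4* passed only without GLOko 4 (adjusted p = 0.0397). The effects of global and endothelial loss were thus not shown to differ for any member.

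Knockout embryos differed more among themselves than control embryos did, in Hox genes as in other genes. On the log2 scale the SD was larger in GLOko than in WT for 35 of 38 Hox genes, against a background of 86.7% of all genes, so the share itself was little above that of genes in general. The median SD was 0.92 in GLOko and 0.29 in WT over Hox genes, and 0.43 and 0.21 over all genes. In ECko the SD was larger than in EChet for 30 of 38 Hox genes, against a background of 68.4%, with medians of 0.39 and 0.25 over Hox genes and 0.24 and 0.18 over all genes. From anterior over middle to posterior the median SD was 0.30, 0.30 and 1.04 in ECko and 0.24, 0.21 and 0.50 in EChet. It was 0.72, 0.95 and 1.29 in GLOko and 0.29, 0.21 and 0.51 in WT. The posterior median was thus the highest in each group, and these differences were not tested. The posterior genes include *Hoxc12* and *Hoxc13*, which had at most 46 and 22 reads in any library, and the part of low reads in their SD was not tested.

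The members with the highest ratio of SD in GLOko to WT were *Hoxa6* (8.42), *Hoxa4* (8.34), *Hoxb5* (8.31), *Hoxc5* (7.82) and *Hoxc8* (7.49), which are all middle genes. Apart from *Hoxa4*, which was within the WT range in GLOko 2, each left the WT range in both GLOko 1 and GLOko 2. *Hoxa6*, *Hoxb5* and *Hoxc5* did so in opposite directions in these embryos, whereas *Hoxc8* was below the range in both. *Hoxb5* was 0.792 FPKM in GLOko 1 and 8.40 in GLOko 2, against 4.38 to 5.65 in WT. *Hoxc5*, its paralog, was 1.00 in GLOko 1 and 9.13 in GLOko 2, against 4.78 to 6.24 in WT. *Hoxa6* went the opposite way, with 4.69 FPKM in GLOko 1 and 0.604 in GLOko 2, against 2.31 to 3.02 in WT. *Hoxc8* was 3.08 in GLOko 1, 0.671 in GLOko 2 and 11.6 in GLOko 6, against 5.91 to 8.10 in WT. GLOko 1 was thus low in *Hoxb5* and *Hoxc5* where GLOko 2 was high, and GLOko 2 was low in *Hoxa6* and *Hoxc8*. *Hoxa5*, also of paralog 5, was 3.22 FPKM in GLOko 1 and 6.86 in GLOko 2. Its WT range was 6.85 to 10.1, so that GLOko 2 was not high in this gene.

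A break was also seen when members were averaged by paralog number in each embryo, as log2 level minus the WT mean. In GLOko 2 the averages were 0.81, 0.87, 0.14 and 0.46 for paralogs 2 to 5, and then -1.66, -2.28, -1.86, -2.63, -2.60 and -2.24 for paralogs 6 to 11. The break thus lay between paralogs 5 and 6. Paralog 13 stood at -2.09, whereas paralog 12 was not low, at 0.21. Of its 15 posterior genes, 12 lay below every WT embryo, and 5 of its 8 anterior genes lay above every WT embryo. The share of all genes outside the WT range was not counted for GLOko 2, so these counts have no background. *Hoxc10* was 2.38 FPKM there against 17.0 to 32.9 in the other GLOko embryos, and *Hoxa10* was 0.420 against 4.22 to 7.29. Paralog 1 did not follow its neighbours and stood at -0.78.

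GLOko 1 was low at the other end. Its averages were -0.65, -1.19, -1.37, -2.07 and -2.04 for paralogs 1 to 5, then -0.47 to -0.81 for paralogs 6 to 9, and 0.23, -0.34, 1.32 and 0.78 for paralogs 10 to 13. The low averages thus lay mostly in paralogs 1 to 5, with no even rise beyond them. That of paralog 3 rested mainly on *Hoxb3*, as its members ran from -3.92 to -0.06. *Hoxa3* and *Hoxd3* were 1.99 and 0.627 FPKM in GLOko 1, within the WT ranges of 1.44 to 2.57 and 0.482 to 0.917. Of the 15 middle genes of GLOko 1, 11 lay below every WT embryo, as did 5 of 8 anterior and 3 of 15 posterior genes. Here too the share of all genes below every WT embryo was not counted. *Hoxb3* was 0.0495 FPKM in this embryo, which was 4 reads, against 0.590 to 2.38 in the other GLOko embryos and 1.603 to 3.21 in WT. *Hoxd13* was 7.60 FPKM, within the WT range. GLOko 6 was a milder case, at -0.80, -0.75, -1.45 and -0.66 for paralogs 2 to 5 and between 0.05 and 0.72 for all other paralogs. Its paralog 4 genes were not all low and ran from -3.19 to 0.52. Of these, *Hoxc4* was 11.6 FPKM, above the WT range of 6.09 to 10.2. In GLOko 3, GLOko 4 and GLOko 5 no average departed by more than 1 on the log2 scale, apart from paralog 12, which stood at -2.23 in GLOko 3 and -2.45 in GLOko 5. Paralog 12 rests on *Hoxc12* and *Hoxd12* alone, both with few reads, and its averages ran from -2.29 to 1.23 among WT embryos as well.

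In the endothelial knockout, 2 of 7 embryos were low in the members nearest the tail. ECko 6 stood at -0.05 for paralog 5, at -0.63, -0.72, -0.82 and -0.91 for paralogs 6 to 9, and at -3.10, -3.55 and -2.48 for paralogs 10, 11 and 13. It thus fell below every EChet embryo from paralog 6 on, with a larger step after paralog 9, and paralog 1 was also low, at -0.89. ECko 1 stood between -0.12 and -0.29 for paralogs 6 to 9 and at -1.55, -2.15 and -1.46 for the same paralogs. Paralogs 2 to 5 stood between -0.16 and 0.30 in both embryos. Of 15 posterior genes, 13 in ECko 6 and 11 in ECko 1 lay below every EChet embryo, as did 8 and 3 of 15 middle genes. The share of all genes below every EChet embryo was not counted for either, so these counts have no background. The other 5 ECko embryos stood between -0.15 and 0.46 for paralog 10. An EChet control, EChet 4, had the same order in a mild form, at -0.74, -0.64 and -0.90 for paralogs 10, 11 and 13.

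Single members show the size of the gap. *Hoxc10* was 0.110 FPKM in ECko 6 (5 reads) and 2.42 in ECko 1, against 12.3 to 18.2 in the other ECko embryos and 4.38 to 17.4 in EChet. *Hoxd11*, a gene of the sacral region and forearm, was listed at 0 in ECko 6 and stood at 0.274 in ECko 1, against 1.26 to 3.87 in the other ECko embryos and 1.34 to 3.76 in EChet. *Hoxd13* was 0.169 and 0.323 FPKM, against 1.43 to 4.76 and 1.798 to 5.04. *Hoxb9* was 25.2 FPKM in ECko 6 and 44.9 in ECko 1, against 42.1 to 51.2 in the other ECko embryos and 38.6 to 48.5 in EChet, so that ECko 6 was below and ECko 1 within the controls. On average ECko 1 stood beside the lowest EChet embryo for paralog 9 (both at -0.24) and lay below every EChet embryo for paralogs 10, 11 and 13.

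**Figure D3:**
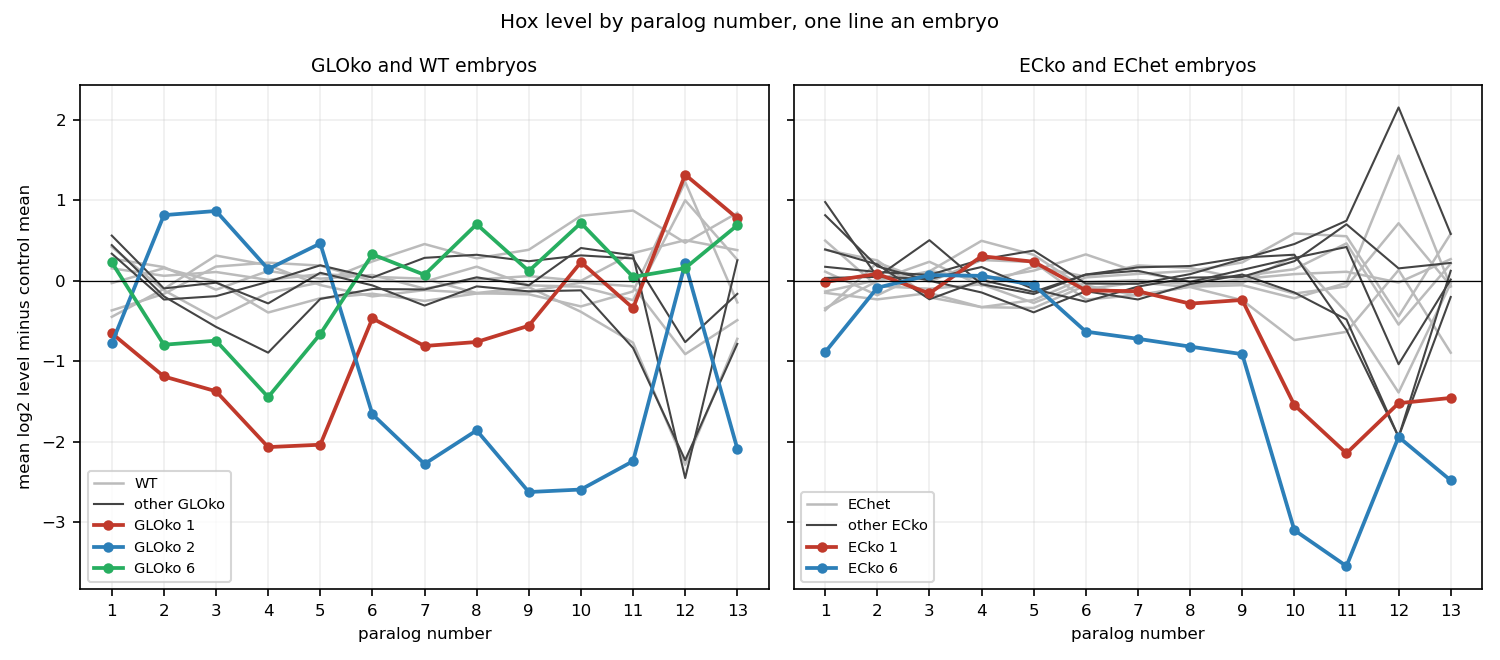
Mean log2 level of the Hox genes of each paralog number minus the control mean (vertical axis) against paralog number, with 1 line an embryo, for the GLOko and WT table (left) and the ECko and EChet table (right). GLOko 2 drops from 0.46 at paralog 5 to -1.66 at paralog 6, GLOko 1 lies at -2.04 at paralog 5 and at 0.23 at paralog 10, and ECko 6 drops from -0.91 at paralog 9 to -3.10 at paralog 10.

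As a single figure per embryo, the median of posterior genes minus the median of anterior genes was -2.64 in GLOko 2, 1.14 in GLOko 1 and 0.81 in GLOko 6 on the log2 scale, against -0.55 to 0.84 in WT. It was -1.85 in ECko 6 and -1.32 in ECko 1, against -0.31 to 0.35 in EChet. ECko 7 at -0.49 and ECko 3 at -0.35 also lay below every EChet embryo. Their posterior medians were 0.02 and -0.12, and their anterior medians 0.51 and 0.23. ECko 2, ECko 4 and ECko 5 lay within the EChet range, at 0.29, 0.05 and 0.20. GLOko 6 lay within the WT range by this measure, because WT 6 had the highest posterior levels of its group, for 14 of 15 genes. No test was made of these differences, since the embryos were singled out by their Hox levels.

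Single genes of the growing tail, chosen after their values were seen, were low in the same embryos. The T gene (brachyury, needed for the notochord and tailbud) was 0.381 FPKM in ECko 6 and 0.824 in ECko 1, against 3.15 to 10.5 in the other ECko embryos, and 0.954 in EChet 4 against 2.84 to 9.31 in the other EChet embryos. *Msgn1*, a factor of presomitic mesoderm, was at 0 in ECko 6 and ECko 1 and 0.392 in EChet 4, against 2.99 to 15.0 in all others of that table. *Cdx4*, of the Cdx family of factors that activate Hox genes, was 0.0641 and 0.486 FPKM in ECko 6 and ECko 1, against 6.82 to 32.0 in the other ECko embryos and 1.42 to 23.9 in EChet. Across the whole list of 15 tailbud markers, the median log2 difference from control was -1.26 in ECko 6, -0.37 in ECko 1 and 0.16 to 0.99 in the other ECko embryos, against -0.38 to 0.71 in EChet. Over the whole list ECko 6 was therefore below the controls and ECko 1 within their range. The summed level was 65.5 to 144 FPKM in ECko and 69.6 to 119 in EChet. The part of tail tissue in the Hox values was not tested.

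In the global knockout, T was 2.18 FPKM in GLOko 1 and 1.64 in GLOko 2, against 6.64 to 10.5 in the other GLOko embryos and 3.11 to 9.90 in WT. *Cdx2* was 3.30 and 1.24, against 15.8 to 19.4 and 3.86 to 16.2. *Cdx4* was 4.44 FPKM in GLOko 1 and 2.15 in GLOko 2, against 2.74 to 20.2 in WT, so that GLOko 1 lay within the WT range. Both embryos were below every WT embryo in T and *Cdx2*, although their Hox profiles ran in opposite directions. Limb genes differed between them: *Tbx5*, the forelimb factor that is also expressed in the heart, was 0.135 FPKM in GLOko 1 and 6.74 in GLOko 2, against 1.93 to 4.99 in WT. *Tbx4* and *Pitx1*, of the hindlimb, were 4.73 and 12.4 FPKM in GLOko 1 and 0.342 and 0.656 in GLOko 2, against 1.43 to 6.53 and 17.0 to 29.6 in WT. The limb bud list had a median log2 difference of -0.42 in GLOko 1 and -0.67 in GLOko 2, against -0.11 to 0.11 in WT.

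Head genes went both ways in these embryos. *Otx2* was 19.7 and 13.4 FPKM in GLOko 1 and GLOko 2, against 4.61 to 8.13 in WT, whereas *Hesx1* was 0.126 and 0.169, against 0.772 to 1.38. Over the 12 forebrain and midbrain genes the median log2 difference was 0.58 in GLOko 1 and -0.39 in GLOko 2, against -0.43 to 0.54 in WT. The tailbud list had a median of -1.16 in GLOko 1 and -0.71 in GLOko 2, against -0.32 to 0.78 in WT, and its summed level was 65.8 to 110 FPKM in GLOko and 89.1 to 153 in WT. Whether the Hox profiles follow the tissue in each sample was not tested.

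**Figure D4:**
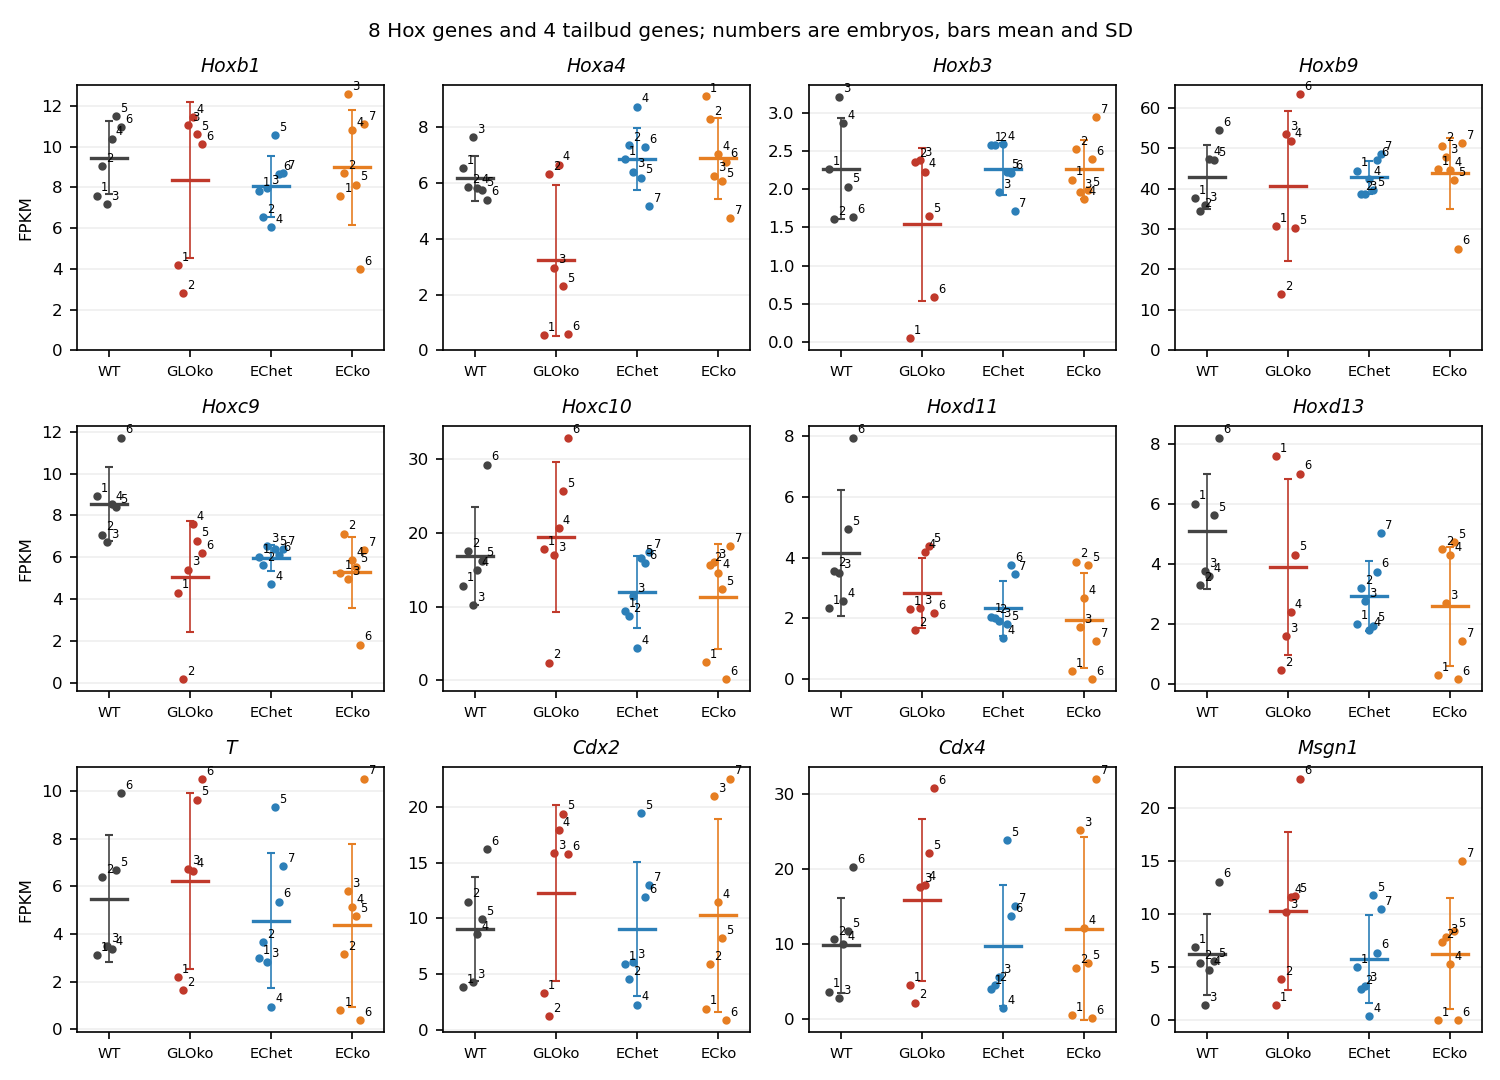
FPKM of 8 Hox genes and of the tailbud genes T, *Cdx2*, *Cdx4* and *Msgn1*, with a numbered point for each embryo, and the group mean and SD as bars (WT and GLOko n = 6, EChet and ECko n = 7). *Hoxc10*, *Hoxd11* and *Hoxd13* are low in ECko 1 and ECko 6, where T stands at 0.824 and 0.381 FPKM, and *Hoxa4* and *Hoxb3* are low in GLOko 1 and GLOko 6.

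*Hoxb1* and *Hoxd1* are at the 3′ end of their clusters, and in ECko their lowest embryo and their highest pair were those of *Cdx2*. *Hoxb1*, a gene of the hindbrain, was highest in ECko 3 and ECko 7, at 12.6 and 11.1 FPKM, and lowest in ECko 6, at 4.01. *Hoxd1* was highest in ECko 7 and ECko 3, at 8.53 and 6.50 FPKM, and lowest in ECko 6, at 1.803. *Cdx2* was 22.5 FPKM in ECko 7, 21.0 in ECko 3 and 0.854 in ECko 6, the highest and lowest embryos of that group. In EChet, *Hoxb1* was highest in EChet 5, at 10.6 FPKM, and lowest in EChet 4, at 6.04, and *Cdx2* was 19.4 and 2.27 FPKM there. *Hoxd1* was also highest in EChet 5, but lowest in EChet 2, at 2.54 FPKM. In WT, *Hoxd1* and *Cdx2* were highest in WT 6 and lowest in WT 1, but *Hoxb1* was highest in WT 5 and lowest in WT 3. In GLOko, *Hoxb1*, *Hoxd1* and *Cdx2* were lowest in GLOko 2. *Hoxd1* and *Cdx2* were highest in GLOko 5, and *Hoxb1* in GLOko 4.

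The promoters of members that were low together differed in their content of CpG, the dinucleotide at which DNA is methylated. The windows printed here run from 250 bases before to 50 bases after the start site (RefSeq, build GRCm38.p6), and were chosen as a middle gene low in GLOko 1 and 3 posterior genes low in ECko 6. They are written 5′ to 3′ on the strand of the gene, in lower case with each CpG in capitals.
Hoxb4, chr11:96318017-96318316, plus strand: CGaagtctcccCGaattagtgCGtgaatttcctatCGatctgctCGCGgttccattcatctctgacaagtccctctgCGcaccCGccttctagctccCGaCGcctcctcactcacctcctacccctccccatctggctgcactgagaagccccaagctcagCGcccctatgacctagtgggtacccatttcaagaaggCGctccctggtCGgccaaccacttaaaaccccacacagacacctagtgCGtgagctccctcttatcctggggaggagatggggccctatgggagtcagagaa
Hoxa10, chr6:52240805-52241104, minus strand: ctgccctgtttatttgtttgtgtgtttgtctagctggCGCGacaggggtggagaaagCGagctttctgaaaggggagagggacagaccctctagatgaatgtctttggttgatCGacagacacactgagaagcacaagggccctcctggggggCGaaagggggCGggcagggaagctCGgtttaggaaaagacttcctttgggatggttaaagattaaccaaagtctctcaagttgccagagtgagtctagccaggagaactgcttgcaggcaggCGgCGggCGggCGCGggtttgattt
Hoxd11, chr2:74679308-74679607, plus strand: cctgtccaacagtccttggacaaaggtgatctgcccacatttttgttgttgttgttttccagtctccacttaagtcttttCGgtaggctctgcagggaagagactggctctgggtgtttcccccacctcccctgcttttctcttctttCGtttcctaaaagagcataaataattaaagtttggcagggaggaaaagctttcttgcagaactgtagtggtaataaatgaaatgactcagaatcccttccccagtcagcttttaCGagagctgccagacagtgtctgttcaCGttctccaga
Hoxa13, chr6:52260831-52261130, minus strand: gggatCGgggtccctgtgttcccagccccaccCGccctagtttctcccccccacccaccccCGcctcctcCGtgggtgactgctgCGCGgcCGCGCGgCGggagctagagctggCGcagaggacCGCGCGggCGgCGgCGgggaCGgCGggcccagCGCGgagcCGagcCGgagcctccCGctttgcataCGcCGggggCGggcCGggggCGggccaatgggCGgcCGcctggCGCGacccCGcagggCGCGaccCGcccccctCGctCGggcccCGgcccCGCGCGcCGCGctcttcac
Among these, *Hoxd11* has 4 CpG, *Hoxa10* 12, *Hoxb4* 14 and *Hoxa13* 45, so that the posterior members low in ECko 6 included both the lowest and the highest CpG count found. A window was found for 22 of 39 Hox genes, with a median of 13.5 CpG against 7 for all 27025 genes of the table, and 36.9% of all genes had at least the Hox median. For Hox genes the window nearest the listed gene start was taken, and for all genes the first window listed, so the choices were unlike. The windows of *Hoxa7*, *Hoxa9* and *Hoxc4* lay 3281, 3719 and 15461 bases from that gene start. That of *Hoxd4* lay 10049 bases from the start of the record that was not tested, and it holds the start of the tested record.

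The letters TTTATG, the core bound by Cdx factors, were searched on both strands. They were found in 5 of 22 Hox windows (22.7%) against 12.1% of all genes, namely in *Hoxa7*, *Hoxb8*, *Hoxd3*, *Hoxd4* and *Hoxd11*. CCAAT was found in 14 of 22 (63.6%) against 37.9%, and TATAAA in 3 of 22 (13.6%) against 14.2%. These are matches of letters in short windows and no sites of binding, and the shares rest on the same unlike choice of windows.

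Genes that work with or upstream of Hox proteins were looked at through lists, whose counts in GLOko stand against the background of 10.4% of all genes called. Of 9 cofactor genes (Pbx, Meis and Prep families, which bind DNA together with Hox proteins), 1 was called in GLOko: *Meis3* fell from 12.3 ± 1.01 FPKM in WT to 7.40 ± 1.44 in GLOko (SD, n = 6 each; log2 fold change -0.72 ± 0.12, adjusted p = 0.00655, limma). Every GLOko embryo lay below every WT embryo for *Meis3*, at 5.39 to 9.34 against 11.2 to 13.7 FPKM. Of 7 upstream regulators, *Gdf11* alone was called, a signal that starts the trunk-to-tail transition and the posterior Hox genes. It stood at 6.77 to 9.26 FPKM in GLOko and 10.3 to 12.3 in WT, without overlap (-0.50 ± 0.09, adjusted p = 0.0104). Of 17 retinoic acid genes, 2 fell and none rose: *Crabp2*, which carries retinoic acid to its receptors (-0.77 ± 0.14, adjusted p = 0.00957), and the receptor gene *Rxra* (-0.49 ± 0.13, adjusted p = 0.0332). In all 3 lists the count was close to what that background gives, so it says nothing particular about them.

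The Polycomb and trithorax genes keep Hox genes off or on once set. Of 19 of them, 3 rose and 3 fell in GLOko, against 10.4% of all genes called, with a median log2 fold change of 0.01 over the list and of 0.01 over all genes. Whether the list differs from other genes was not tested. *Jarid2* (0.74 ± 0.16), *Kmt2a* (0.67 ± 0.11) and *Ezh1* (0.64 ± 0.16) rose, and *Cbx2* (-0.74 ± 0.15), *Phc2* (-0.50 ± 0.10) and *Men1* (-0.48 ± 0.13) fell, with adjusted p from 0.00655 for *Kmt2a* to 0.0310 for *Men1* (limma). *Kmt2a* and *Men1* act in the same activating complex, and they moved in opposite directions. Of the tailbud list 1 of 15 fell (*Lfng*, -0.59 ± 0.14, adjusted p = 0.0219), of the hindbrain list 1 of 5 rose (*Epha4*, 0.59 ± 0.12, adjusted p = 0.0146), and of the placenta and allantois list 1 of 5 tested rose (*Ascl2*, 1.95 ± 0.53, adjusted p = 0.0346). With the same background, single calls in lists this short do not set them apart. None of 12 forebrain and midbrain, 8 limb bud or 11 yolk sac endoderm genes was called. The smallest p was for *Hesx1* (-0.89 ± 0.39, adjusted p = 0.160), followed by *Lhx2* (-0.52) and *Six6* (-0.64), in the first list. It was for *Shh* (-0.80 ± 0.25, adjusted p = 0.0574), followed by *Fgf10* (0.33) and *Lmx1b* (-0.30), in the second. It was for *Apoa4* (2.00 ± 1.07, adjusted p = 0.237), followed by *Cubn* (1.24) and *Apob* (1.31), in the third.

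In ECko none of these lists held a called gene, against a background of 0.0971%, with adjusted p from 0.188 upwards (limma). Genes that led their list by p are given with their log2 fold change. Cofactors were led by *Pknox1* (-0.20), *Pbx4* (0.33) and *Pknox2* (0.10), and upstream regulators by *Gdf11* (-0.20 ± 0.09, adjusted p = 0.327) and *Egr2* (0.39), which is also a hindbrain gene. Retinoic acid genes were led by *Crabp1* (0.23 ± 0.06, adjusted p = 0.188), *Dhrs3* (0.55) and *Rarb* (0.22), and Polycomb and trithorax genes by *Jarid2* (0.25), *Kdm6b* (0.25) and *Cbx7* (0.38). The directions in each were mixed or positive, and the values were small.

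Regional markers did not differ by the test in ECko either. Tailbud genes were led by *Uncx* (0.26), *Wnt3a* (0.12) and *Fgf8* (0.16), forebrain and midbrain genes by *Otx2* (0.30 ± 0.09, adjusted p = 0.203) and *Six3* (0.30), and hindbrain genes by *Gbx2* (0.28) and *Egr2* (0.39). Limb bud genes were led by *Hand2* (-0.18), *Tbx5* (-0.29) and *Tbx4* (-0.62), yolk sac endoderm genes by *Apoa1* (0.51), *Rbp4* (0.35) and *Ttr* (0.27), and placenta and allantois genes by *Plac1* (-0.60 ± 0.20, adjusted p = 0.217), *Ascl2* (1.65) and *Tfap2c* (0.23).

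Genes that lie among or beside the Hox genes were few, and none was called, against backgrounds of 10.4% in GLOko and 0.0971% in ECko. Counts of 0 in sets this small do not set them apart. Inside the clusters, 0 of 2 other protein-coding and 0 of 26 noncoding or unclassified genes were called in GLOko, with medians of -0.09 and -0.30, and 0 of 2 and 0 of 26 in ECko. Within 150 kb of a cluster, 0 of 10 protein-coding genes were called in GLOko. *Mtx2*, next to the Hoxd cluster, had the smallest p of these (-0.38 ± 0.14, adjusted p = 0.0862, limma).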

How the data were processed

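RNA from 26 whole E9.5 embryos was sequenced. The labels name STAR and mm10, and the study's list of software names HISAT2 and featureCounts too. Neither the tool behind these tables, nor its version or counting strand, is given in the sources used here. FPKM per gene were deposited by the authors in 2 tables, GLOko with WT and ECko with EChet. Multiplied by gene length, the values of a library fell on whole steps in 100% of cases (tolerance 0.01), which gave back its reads. Values were divided by median-of-ratios factors within a table, log2 transformed after adding 0.1, and tested with limma 3.58.1 (R 4.3.3; trend and robust moderation) on genes of mean FPKM of at least 0.1, with Benjamini-Hochberg adjustment over all genes. Fold changes are on this log2(FPKM + 0.1) scale, which understates low genes. The function was tested on simulated data. Python 3 with pandas, SciPy and matplotlib made summaries, and promoter windows came from RefSeq.

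The members and lists were chosen with earlier results of these data known. Named with values were the 5 members of smallest p in each test, the highest and the most 5′ member of each cluster in WT, the 5 of highest SD ratio, called genes of the other lists, and the 3 of smallest p where none was called. Some genes under this rule are not reported here. Other members named for single embryos, and the neighbours, were chosen after their values were seen. The labels do not say which embryos shared a litter, and p-values measure the spread between these embryos. Alternatives varied the pseudocount, filter, scaling, weights, test, block and embryos. The authors' fold change and p-value columns were not used. Depth sets the precision of low genes, and read limits cover counting error only.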

Additional observations from a re-analysis of the deposited data

Results flagged for a closer look

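Among 52 sets of embryos (13 paralog numbers in 4 groups), 4 had an embryo far from the others of its group. Chance flags about 1 in 20 such sets, and the 13 sets of a group share the same embryos, so they are not independent. GLOko 1, ECko 1 and ECko 6 were not flagged by this rule. GLOko 2 stood at -2.63 for paralog 9 and -2.60 for paralog 10 on the log2 scale against the WT mean, where the next lowest GLOko embryos stood at -0.56 and -0.12. WT 6 stood at 0.81 for paralog 10, above a next highest of -0.0015. ECko 7 stood at 0.50 for paralog 3, above a next highest of 0.07.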

How the results depend on the processing

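The counts of called Hox genes were 0, 0 and 0 (GLOko against WT, ECko against EChet, and their difference) in every alternative of pseudocount, filter, scaling, weights, test and fold threshold, and without GLOko 1, GLOko 2 and GLOko 6, without GLOko 1 and WT 4, or, chosen after seeing the data, without GLOko 1 and GLOko 2 or ECko 1 and ECko 6. Leaving out 1 embryo at a time gave 0 to 1 for GLOko against WT, 0 to 0 for ECko against EChet and 0 to 1 for the difference. The gene was *Hoxa4* without GLOko 2 or GLOko 4, and without GLOko 4 for the difference. No named log2 fold change turned its sign. With a replicate block the counts were also 0, 0 and 0. Same-numbered embryos did not deviate together (r from -0.05 to 0.09 and from -0.08 to 0.11, with 3 of 12 and 4 of 14 embryos closest to their own number), so the numbers were not taken as pairs. Over all genes the block gave 1010, 0 and 194 calls in place of 1833, 17 and 344. Other alternatives gave 542 to 2799, 0 to 31 and 1 to 963, and leaving out 1 embryo gave 731 to 2491, 3 to 51 and 17 to 1207. The difference had 194 positive and 150 negative calls, and 163 and 193 on FPKM as deposited. The posterior minus anterior value was computed in 3 alternatives only: pseudocounts of 0.01 and 1, and FPKM as deposited. It kept its sign in these, at -2.80 to -1.91 in GLOko 2, 0.83 to 1.19 in GLOko 1, -1.40 to -0.50 in ECko 1 and -2.27 to -1.04 in ECko 6. Few reads limit *Hoxc12*, *Hoxc13*, *Hoxd4* and *Hoxd12*.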
